A study of Mus musculus with 24 samples.

Results

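The collagen alpha chain genes of the mouse were followed across cultured cells of the ovarian surface epithelium, the single cell layer that covers the ovary. The members were chosen by symbol (Col, a type number, a, a chain number), which gave 44 of the 35695 genes of the series. Of the 24 libraries, each of 8 groups had 3. In the first experiment, cells of the line m1102 were grown as spheroids with TGFB1 (transforming growth factor beta 1, a cytokine), as spheroids without it, as monolayers with TGFB1 and as monolayers without it. TGFB1 was used at 10 ng/mL, and the spheroid cells received it for 4 days before they were moved to low-attachment plates; the labels give no time for the monolayers. In the second, monolayers of m1102 carried a lentiviral construct for Snail, a repressor of epithelial genes, or the WPI vector alone. In the third, cells of the line mOSE_BRCA1_fl, taken from BRCA fl/fl mice, received an adenovirus with Cre recombinase (BRCA1 ko) or with GFP (BRCA1 wt). All groups grew in medium with serum, insulin, transferrin and selenium supplement and EGF, and each experiment used 1 line. Strain and age of the donor mice, and whether libraries of a group came from separate cultures, are not given in the labels, so each p-value speaks of the variation among the libraries at hand alone.

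Collagens are secreted proteins in which 3 alpha chains wind around each other into a rope-like helix. Fibrillar chains (types I, III and V) build the fibres of connective tissue, and type I is normally a trimer of Col1a1 and Col1a2 products. Type IV chains form the sheet of basement membranes, such as the one on which the ovarian surface epithelium rests, from trimers of Col4a1 and Col4a2, of Col4a3, Col4a4 and Col4a5, or of Col4a5 and Col4a6. Type VI makes beaded filaments around cells, FACIT collagens sit on the surface of fibrils, and the multiplexins Col15a1 and Col18a1 lie in the basement membrane zone, where Col18a1 is the source of endostatin. TGFB1 is widely known as an inducer of fibrillar collagen genes in fibroblasts.

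Levels are in scaled TPM, TPM (a transcript abundance corrected for length) multiplied by a factor per library, so genes can be compared within a library, while the 3 experiments were normalised separately and their levels are not compared. Fold changes are log2 values from limma on log2(scaled TPM + 1), given with their standard error and the adjusted p over all genes tested; a gene was called at an adjusted p under 0.05, and SD is given for levels. Library sums were 955433 to 1166749 in the culture experiment, 983449 to 1021026 in the Snail experiment and 796668 to 1810667 in the BRCA1 experiment. Snai1 was at 234, 195 and 193 in Snail libraries, against 13.7, 10.1 and 9.81 in WPI libraries. Brca1 was at 5.34, 11.1 and 4.09 in libraries labelled BRCA1 ko, against 4.27, 12.3 and 3.66 in libraries labelled BRCA1 wt (log2 fold change 0.09, adjusted p = 0.904). The submitters state that deletion was checked before RNA was taken, but the part of Brca1 that Cre removes is not given, so the gene level cannot test the labels. All 6 monolayer libraries, and no spheroid library, are labelled as re-analysed earlier data, so culture form and library origin cannot be told apart. Where TGFB1 groups or effects are compared between culture forms, the TGFB1 schedule cannot be told apart from them either. The labels trace untreated monolayers 1 and 2 to one earlier sample, although their values differ. Mitochondrial genes took 7.24, 13.9 and 12.1% of the library sum in TGFB1 spheroids, 7.80 to 8.68% in untreated spheroids and 6.60 to 8.62% in monolayers; their part in the results was not tested.

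Of 12 markers of the ovarian surface epithelium, 8 to 10 reached 1 in every group, while the keratin gene Krt8 stayed at or below 1 in m1102 and Cdh1 and Lhx9 in every group. Their summed level was 218 to 440 in TGFB1 spheroids, 237 to 433 in untreated spheroids, 1129 to 1489 in TGFB1 monolayers and 2187 to 2314 in untreated monolayers. Summed levels of 8 smooth muscle and pericyte markers were 183 to 250, 18.6 to 75.2, 3778 to 5298 and 2443 to 3189 in the same order of groups, and Myh11 and Rgs5 stayed at or below 1 throughout. Fibroblast and stroma markers, 4 to 6 of 8 reaching 1 and Lum and Tcf21 not, summed to 448 to 1107, 316 to 359, 704 to 738 and 1533 to 1735 in that order. Granulosa and theca markers, 3 to 5 of 8 reaching 1 and Fshr at 0, summed to 41.2 to 92.7, 161 to 264, 31.8 to 38.9 and 52.8 to 63.6. The 6 endothelial markers summed to 26.3 to 52.4 in TGFB1 spheroids, 2.51 to 7.58 in untreated spheroids and at most 2.29 in monolayers, with Tek and Kdr at or below 1, and the 6 leukocyte markers to at most 1.44. Each of these lists overlapped between Snail and WPI libraries. The part of these shifts in the collagen results was not tested. In such bulk libraries, fewer cells of a type and less RNA per cell cannot be told apart.

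Most collagen RNA came from few genes. In the culture experiment 28 of 44 members reached 1 scaled TPM in some library and 9 reached 100, 9 members never reached 0.1, and Col9a1 was at 0 throughout. The 5 genes with the highest mean were Col4a1, Col4a2, Col5a2, Col3a1 and Col1a2, and the same 5 led in the Snail experiment. In the BRCA1 experiment the leading 5 were Col4a1, Col4a2, Col1a1, Col3a1 and Col5a2. The filter (at least 1 in at least 3 libraries) passed 26, 21 and 23 members in the culture, Snail and BRCA1 experiments. Among the 18 not tested in the culture experiment, 16 never reached 1. The other two were Col17a1, the hemidesmosomal collagen of epithelia, and Col11a1, a fibrillar chain. Col17a1 was at 8.68, 2.27 and 0.725 in TGFB1 spheroids, against at most 0.175 in every other library. Col11a1 was at 1.53, 0.542 and 0.758 in TGFB1 monolayers, against at most 0.173 elsewhere.

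**Figure D1:**
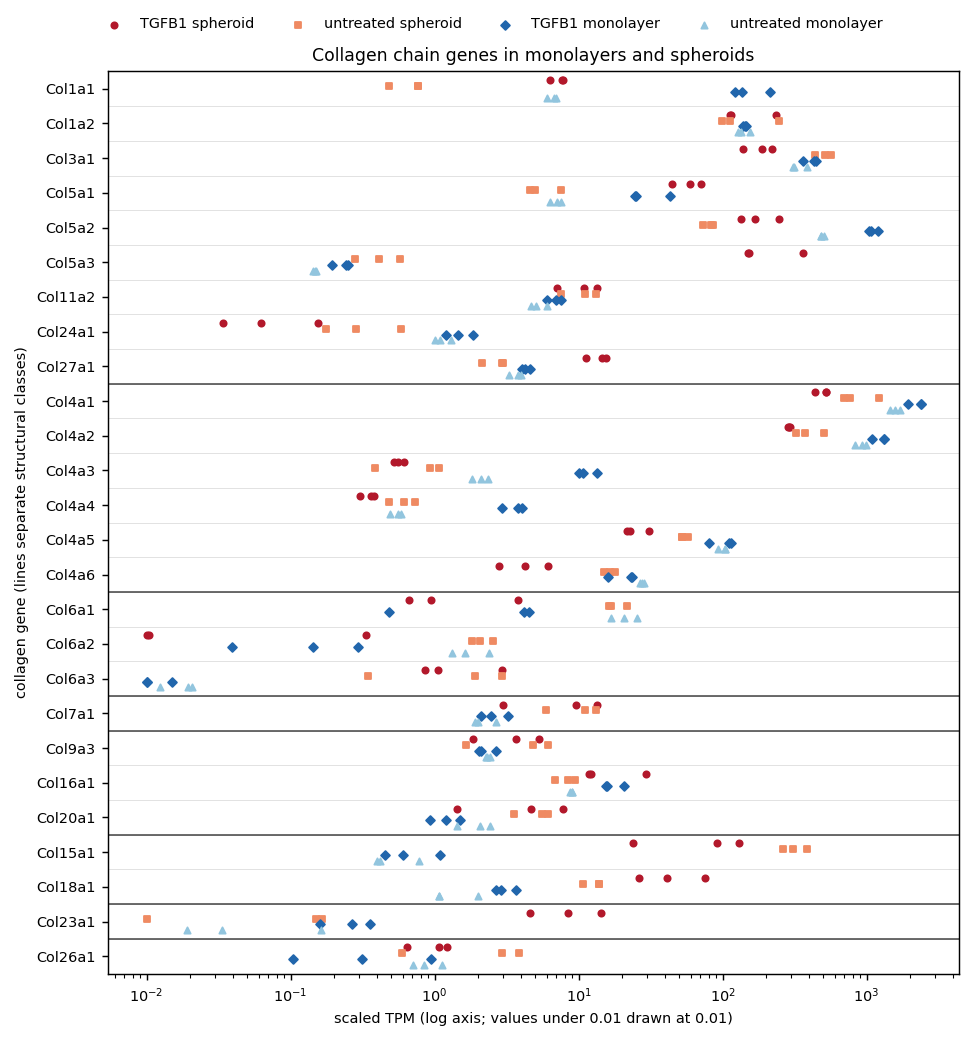
Scaled TPM (log axis, values under 0.01 drawn at 0.01) of the 26 tested collagen genes in the 12 libraries of the culture experiment. Each point is a library, colours and shapes mark the 4 groups, and lines separate structural classes; Col5a3 and Col23a1 lie far to the right in the 3 TGFB1 spheroid libraries alone, and Col15a1 in the 6 spheroid libraries.

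Collagen RNA made up 0.154 to 0.193% of the library sum in TGFB1 spheroids, 0.215 to 0.327% in untreated spheroids, 0.534 to 0.592% in TGFB1 monolayers and 0.353 to 0.391% in untreated monolayers. The 4 ranges do not overlap. The share was higher with TGFB1 in monolayers and lower with TGFB1 in spheroids. Within the collagen RNA, type IV chains made up 44.7 ± 4.22%, 54.0 ± 3.58%, 65.5 ± 3.88% and 71.7 ± 2.16% in the same order of groups (SD, n = 3). Fibrillar chains made up 45.3 ± 4.78% in TGFB1 spheroids, 30.5 ± 2.55% in untreated spheroids, 33.9 ± 3.83% in TGFB1 monolayers and 27.1 ± 2.02% in untreated monolayers. In both culture forms, TGFB1 libraries thus had a larger fibrillar and a smaller type IV share. Multiplexins made up 5.51 to 7.98% of collagen RNA in TGFB1 spheroids and 12.8 to 13.6% in untreated spheroids, against at most 0.0772% in all 6 monolayer libraries.

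**Figure D2:**
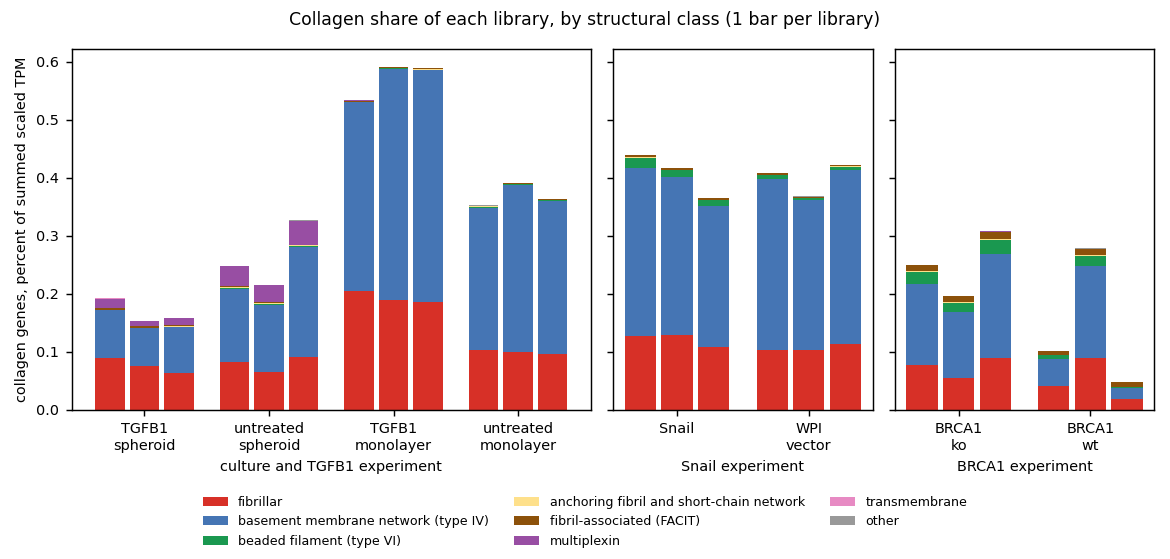
Collagen RNA by structural class as a percent of the library sum (stacked bars, 1 bar per library, from 0). TGFB1 monolayers reach 0.534 to 0.592%, TGFB1 spheroids 0.154 to 0.193%, and the multiplexin part is visible in spheroids and not in monolayers.

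Between TGFB1 spheroids and untreated spheroids, 16 of 26 tested members were called, 8 higher and 8 lower, beside 35.6% of all genes tested (18.8% higher, 16.8% lower; 2544 and 2266 genes). With libraries scaled to the same sum, 1592 genes were higher and 3746 lower, and the median of all genes was -0.16; 7 members were then higher and 8 lower. Without that scaling the median log2 fold change was -0.22 for members, beside 0.0026 for all genes. Between TGFB1 monolayers and untreated monolayers, 7 members were called, 5 higher and 2 lower, beside 16.9% of all genes (9.12% higher, 7.79% lower), with medians of 0.20 and 0.013. Between untreated spheroids and untreated monolayers, 15 members were called, 7 higher and 8 lower, beside 55.2% of all genes. Between TGFB1 spheroids and TGFB1 monolayers, 19 members were called, 9 higher and 10 lower, beside 51.9%. The difference between both TGFB1 effects (in spheroids minus in monolayers) was called for 13 members, 4 higher and 9 lower, beside 15.8% of all genes (8.72% higher, 7.11% lower; 1178 and 960 genes), where scaling to the same sum gave 732 higher and 1903 lower genes, a median of -0.21 and 12 called members. That scaling also gave 2428 higher and 4888 lower genes for TGFB1 spheroids against TGFB1 monolayers, in place of 3424 and 3585. These comparisons share groups and are not independent of each other. Col5a3 and Col23a1 passed the filter only through TGFB1 spheroids, Col4a4 only through TGFB1 monolayers, Col6a2 only through untreated groups, Col6a3 only through spheroids and Col24a1 only through monolayers. These members had to differ between the groups in which they reached 1 and the others, so their tests and the counts of called members describe a selected list. For members near 0 the size of a fold change depends on the pseudocount. For the called changes of members printed here, values with a pseudocount of 0.1 are given where they differ by over 1.5 times. Changes that were not called are given with a pseudocount of 1 alone, and their size near 0 can depend on it too.

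**Figure D3:**
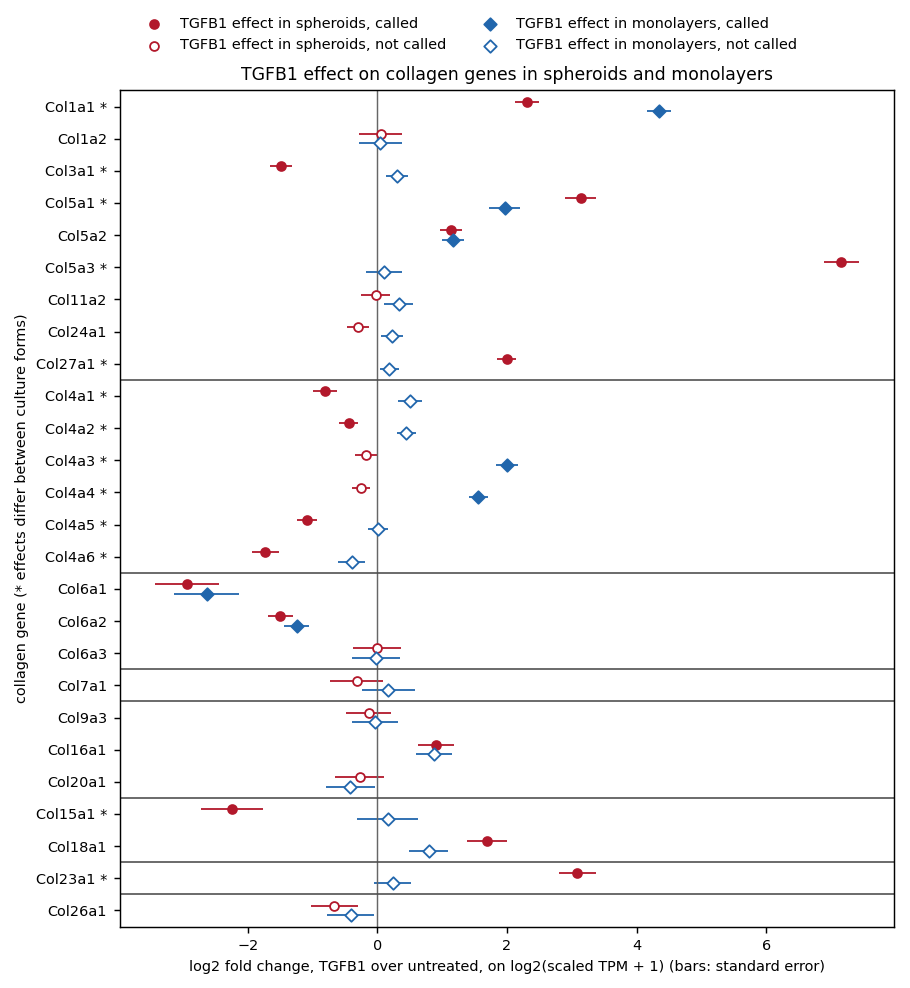
Log2 fold change with TGFB1 in spheroids (circles) and in monolayers (diamonds) for each tested collagen gene, with standard errors, filled where called at an adjusted p under 0.05; an asterisk marks a called difference between both effects. Col5a3 lies at 7.16 in spheroids and 0.10 in monolayers, Col1a1 at 2.30 and 4.34, and Col6a1 and Col6a2 lie below 0 in both.

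Among fibrillar chains, 5 of the 9 tested were higher and 1 lower in TGFB1 spheroids than in untreated spheroids, and 3 were higher and none lower in TGFB1 monolayers than in untreated monolayers. Of all genes tested, 18.8% were higher and 16.8% lower in spheroids, and 9.12% and 7.79% in monolayers. The 5 include Col5a3, which passed the filter only through TGFB1 spheroids, so its call rests on that selection. Col5a3, which encodes the least widespread chain of type V collagen, was at 150, 360 and 153 in TGFB1 spheroids, against 0.58, 0.281 and 0.412 in untreated spheroids. The monolayer libraries were at 0.252, 0.242 and 0.195 with TGFB1 and at 0.144, 0.15 and 0.148 without it. High Col5a3 was therefore seen in the 3 TGFB1 spheroid libraries alone of this experiment, and it was at most 0.122 in the Snail and BRCA1 experiments. The TGFB1 effect was 7.16 ± 0.27 in spheroids (adjusted p = 6.75e-08) and 0.10 ± 0.27 in monolayers (adjusted p = 0.860; the monolayer groups do not overlap), and their difference was 7.06 ± 0.39 (adjusted p = 2.46e-06). With these levels Col5a3 passed the ubiquitous type V partner Col5a2 in TGFB1 spheroids 2 and 3, at ratios of 2.16 and 1.14, and was at 0.604 of it in library 1.

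Col5a3 lies on chromosome 9, 20770050 to 20815067, on the minus strand (GRCm38). Because it had the largest TGFB1 effect of all members, the 250 bases before its RefSeq start are shown (chr9:20815068-20815317, minus strand, GRCm38.p6), with capitals for matches on either strand to the CCAAT box, spelled CCAAT, and to the GC box, whose letters are GGGCGG.
Col5a3: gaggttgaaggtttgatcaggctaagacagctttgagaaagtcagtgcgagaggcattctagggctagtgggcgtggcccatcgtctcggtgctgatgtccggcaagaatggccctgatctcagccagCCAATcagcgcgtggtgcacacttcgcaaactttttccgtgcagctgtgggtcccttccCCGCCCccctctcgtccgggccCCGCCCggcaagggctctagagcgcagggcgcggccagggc
The stretch holds 1 CCAAT 122 bases before the start and GC box letters 63 and 41 bases before it. Of 32851 RefSeq windows of 300 bases, 37.4% hold CCAAT and 35.7% the GC box letters on either strand, so both are common. The letters CAGACA (or TGTCTG), a SMAD-type element, and CAGGTG (or CACCTG), an E-box, do not occur in the 300-base window of Col5a3, and 21% and 20.2% of all windows hold them. RefSeq windows were found for 35 of 44 members.

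Col5a1, which encodes the main chain of type V collagen and nucleates fibrils, rose with TGFB1 in both culture forms. It was at 59.8, 70.7 and 44.7 in TGFB1 spheroids, against 4.63, 5.01 and 7.6 in untreated spheroids, and at 43.4, 25.2 and 24.7 in TGFB1 monolayers, against 7.03, 6.37 and 7.52 in untreated monolayers. Neither pair of groups overlaps. The effects were 3.14 ± 0.24 (adjusted p = 7.35e-06) in spheroids and 1.96 ± 0.24 (adjusted p = 0.000549) in monolayers. Their difference of 1.18 ± 0.34 was called at an adjusted p of 0.0376, but not when any of 9 of the 12 libraries was left out, with adjusted p up to 0.0895; the 3 exceptions were TGFB1 monolayer 1, untreated spheroid 3 and TGFB1 spheroid 3. Col5a2 rose by nearly the same amount in both forms, from different bases. It was at 248, 167 and 134 in TGFB1 spheroids, against 82.8, 73.2 and 85.2 in untreated spheroids (1.13 ± 0.17, adjusted p = 0.000752). In monolayers it was at 1200, 1074 and 1037 with TGFB1, against 479, 483 and 508 without (1.17 ± 0.17, adjusted p = 0.00162). Its level was lower in spheroids, by -2.60 ± 0.17 for untreated spheroids against untreated monolayers and by -2.63 ± 0.17 for TGFB1 spheroids against TGFB1 monolayers.

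Of the type I genes, Col1a1 rose with TGFB1 in both forms and Col1a2 was called in neither. Col1a1, on chromosome 11, 94936224 to 94953042, was at 7.68, 7.84 and 6.28 in TGFB1 spheroids, against 0.771, 0.483 and 0.764 in untreated spheroids (2.30 ± 0.18, adjusted p = 1.07e-05). In monolayers it was at 214, 136 and 123 with TGFB1, against 6.01, 6.74 and 7.02 without (4.34 ± 0.18, adjusted p = 7.82e-07). The level in TGFB1 spheroids was thus close to that in untreated monolayers. The effect was smaller in spheroids by -2.04 ± 0.26 (adjusted p = 0.000732; -1.25 with a pseudocount of 0.1). Col1a2, the partner chain, was at 236, 114 and 113 in TGFB1 spheroids and 113, 99.3 and 245 in untreated spheroids, and at 145, 143 and 139 in TGFB1 monolayers and 134, 156 and 128 in untreated monolayers. All 4 groups overlap for Col1a2, and none of the 4 comparisons called it (adjusted p = 0.930 to 0.967).

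Col3a1, the chain of type III collagen of soft tissues, fell with TGFB1 in spheroids and was not called in monolayers. It was at 189, 139 and 220 in TGFB1 spheroids, against 568, 438 and 519 in untreated spheroids (-1.49 ± 0.17, adjusted p = 0.00011). In monolayers it was at 365, 435 and 446 with TGFB1 and 385, 316 and 310 without (0.30 ± 0.17, adjusted p = 0.249), and the effects differed by -1.79 ± 0.23 (adjusted p = 0.000817). Col27a1, a fibrillar chain known from cartilage, was at 14.6, 15.5 and 11.2 in TGFB1 spheroids, against 2.13, 2.96 and 2.98 in untreated spheroids (2.00 ± 0.15, adjusted p = 5.63e-06). The monolayers lay at 4.62, 4.03 and 4.26 with TGFB1 and 3.81, 3.96 and 3.29 without, groups that do not overlap but with a change of 0.18 ± 0.15 that was not called, and the difference of effects was 1.81 ± 0.21 (adjusted p = 0.000366). Col24a1, another fibrillar chain, was low everywhere. It was at 0.062, 0.0341 and 0.155 in TGFB1 spheroids, 0.175, 0.584 and 0.283 in untreated spheroids, 1.2, 1.84 and 1.46 in TGFB1 monolayers and 0.999, 1.09 and 1.29 in untreated monolayers. It was lower in spheroids with TGFB1 (-1.20 ± 0.17; -3.16 with a pseudocount of 0.1) and without (-0.67 ± 0.17; -1.55 with that pseudocount). Col11a2 was higher in untreated spheroids than in untreated monolayers (0.87 ± 0.23, adjusted p = 0.00673) and was not called for TGFB1 in either form.

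All 6 type IV genes had a lower TGFB1 effect in spheroids than in monolayers, with differences from -0.89 to -2.18 that were each called. Of all genes tested, 7.11% had a lower effect in spheroids by this test and 8.72% a higher one. Within spheroids, 4 of the 6 fell with TGFB1 and none rose, beside 16.8% of all genes lower and 18.8% higher. Within monolayers 2 rose and none fell, beside 9.12% of all genes higher and 7.79% lower. Col4a4, among those that rose, passed the filter only through TGFB1 monolayers, so its calls rest on that selection. Col4a1 was at 523, 438 and 525 in TGFB1 spheroids, against 765, 698 and 1228 in untreated spheroids (-0.81 ± 0.19, adjusted p = 0.00647). It was at 1942, 2379 and 2379 in TGFB1 monolayers and 1456, 1697 and 1587 in untreated monolayers (0.50 ± 0.19, adjusted p = 0.0961), groups that do not overlap although the gene was not called. Col4a2 was at 291, 287 and 294 in TGFB1 spheroids, against 373, 326 and 510 in untreated spheroids, and at 1099, 1326 and 1320 in TGFB1 monolayers, against 833, 991 and 930 in untreated monolayers. Its fall in spheroids (-0.44 ± 0.15, adjusted p = 0.0355) was lost when any 1 of 6 libraries was left out, namely any TGFB1 spheroid library, untreated spheroid 1 or 3, or untreated monolayer 3 (adjusted p up to 0.0921). Without untreated spheroid 3 it was -0.26. The spheroid libraries lay below the monolayer libraries for both genes. For TGFB1 spheroids against TGFB1 monolayers the changes were -2.17 ± 0.19 (Col4a1) and -2.09 ± 0.15 (Col4a2), and for untreated spheroids against untreated monolayers -0.86 ± 0.19 and -1.21 ± 0.15. The Col4a1 and Col4a2 genes start head to head on chromosome 8 and overlap by 22 bases, and whether counting used strand is not given in the sources used here.

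Col4a5 and Col4a6, neighbours on chromosome X 1308 bases apart, fell with TGFB1 in spheroids. Col4a5 was at 22.7, 21.7 and 31.1 in TGFB1 spheroids, against 57.8, 52.5 and 52.3 in untreated spheroids (-1.09 ± 0.15, adjusted p = 0.000437). Col4a6 was at 4.25, 2.79 and 6.16 in TGFB1 spheroids, against 16.4, 15.0 and 17.9 in untreated spheroids (-1.74 ± 0.21, adjusted p = 0.000181). In monolayers neither was called: Col4a5 lay at 80.3, 115 and 111 with TGFB1 and 93.0, 105 and 104 without, and Col4a6 at 16.0, 23.7 and 23.3 with TGFB1 and 26.7, 27.6 and 28.6 without.

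Col4a3 and Col4a4, whose chains replace Col4a1 and Col4a2 products in the mature kidney glomerulus, rose in TGFB1 monolayers. Col4a3 was at 13.4, 10.8 and 10.1 in TGFB1 monolayers, against 1.81, 2.11 and 2.35 in untreated monolayers (2.00 ± 0.17, adjusted p = 7.84e-05). Col4a4 was at 4.03, 3.78 and 2.92 in TGFB1 monolayers, against 0.492, 0.554 and 0.587 in untreated monolayers (1.56 ± 0.14, adjusted p = 0.000121; 2.50 with a pseudocount of 0.1). In spheroids they stayed low: Col4a3 was at 0.613, 0.558 and 0.522 with TGFB1 and 1.07, 0.936 and 0.385 without, and Col4a4 at 0.36, 0.303 and 0.378 with TGFB1 and 0.728, 0.617 and 0.482 without. Neither gene was called in spheroids (adjusted p = 0.442 for Col4a3 and 0.190 for Col4a4), although the Col4a4 groups do not overlap. The effects in spheroids and monolayers differed by -2.18 ± 0.24 for Col4a3 (adjusted p = 0.000313) and by -1.81 ± 0.20 for Col4a4 (adjusted p = 0.000321; -3.16 with a pseudocount of 0.1). Both genes lie head to head on chromosome 1, Col4a4 from 82448423 to 82586849 on the minus strand and Col4a3 from 82586921 to 82722059 on the plus strand. The 71 bases between them (chr1:82586850-82586920, GRCm38.p6), shown because both genes rose together, read as follows on the strand of Col4a4.
Col4a4: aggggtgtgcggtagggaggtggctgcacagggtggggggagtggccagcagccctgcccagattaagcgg
Of the 5 sets of letters searched, the 4 named above and TATAAA, none lies in this stretch, and TATAAA is in 13.6% of all windows. The 300-base window of Col4a4 reaches beyond it and holds the E-box letters CAGGTG 169 bases before the start. Those letters are in 20.2% of all windows.

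Of the 3 tested type VI genes, Col6a1 and Col6a2 fell with TGFB1 in both culture forms; their products are partners in the type VI trimer. Col6a1 was at 0.945, 0.664 and 3.8 in TGFB1 spheroids, against 16.3, 16.8 and 21.7 in untreated spheroids (-2.94 ± 0.50, adjusted p = 0.00128). In monolayers it was at 0.479, 4.56 and 4.17 with TGFB1, against 25.6, 20.8 and 16.8 without (-2.64 ± 0.50, adjusted p = 0.00534), and it was -2.02 without TGFB1 monolayer 1. Col6a2 was at 0.0104, 0 and 0.334 in TGFB1 spheroids, against 1.82, 2.06 and 2.54 in untreated spheroids (-1.50 ± 0.19, adjusted p = 0.000264; -3.72 with a pseudocount of 0.1). It was at 0.0393, 0.143 and 0.293 in TGFB1 monolayers, against 2.37, 1.64 and 1.32 in untreated monolayers (-1.25 ± 0.19, adjusted p = 0.00199; -2.95 with a pseudocount of 0.1). In each of these 4 comparisons every TGFB1 library lay below every untreated library. Col6a2 passed the filter only through untreated groups, so its calls and its separation rest on that selection. The difference between the effects in the 2 forms was -0.30 ± 0.70 for Col6a1 (adjusted p = 0.818) and -0.25 ± 0.27 for Col6a2 (adjusted p = 0.581), so neither was shown to differ. Col6a3, the largest type VI chain, had another pattern. It was at 2.92, 0.864 and 1.06 in TGFB1 spheroids and 2.96, 1.9 and 0.344 in untreated spheroids, while the monolayers were at 0 to 0.015 with TGFB1 and 0.0125 to 0.0208 without. It was higher in untreated spheroids than in untreated monolayers (1.29 ± 0.37, adjusted p = 0.0117; 3.57 with a pseudocount of 0.1), a call lost without untreated spheroid 1 (adjusted p = 0.0523). The remaining type VI genes did not pass the filter in any experiment.

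Col15a1 and Col18a1 were both higher in spheroids than in monolayers, and with TGFB1 Col15a1 fell and Col18a1 rose in spheroids. Col15a1, on chromosome 4, 47208161 to 47313167, was at 131, 23.9 and 90.9 in TGFB1 spheroids, against 310, 264 and 388 in untreated spheroids (-2.24 ± 0.47, adjusted p = 0.00414). In monolayers it was at 1.1, 0.606 and 0.452 with TGFB1 and 0.778, 0.399 and 0.421 without (0.16 ± 0.47, adjusted p = 0.876). TGFB1 spheroid 2 lay lowest of its group, and without it the effect in spheroids was -1.53 ± 0.22. The difference between the effects, -2.40 ± 0.67 at an adjusted p of 0.034, was lost without any 1 monolayer or untreated spheroid library (adjusted p up to 0.0762) and kept without any 1 TGFB1 spheroid library. Col18a1 was at 26.2, 75.0 and 41.2 in TGFB1 spheroids, against 13.8, 13.8 and 10.8 in untreated spheroids (1.69 ± 0.31, adjusted p = 0.00188). It was at 2.9, 3.69 and 2.65 in TGFB1 monolayers, against 1.07, 2.01 and 1.08 in untreated monolayers, groups that do not overlap although the change of 0.79 ± 0.31 was not called (adjusted p = 0.106). Without TGFB1, Col18a1 was higher in spheroids than in monolayers by 2.55 ± 0.31 (adjusted p = 4.74e-05), and with TGFB1 by 3.45 ± 0.31 (adjusted p = 5.21e-06). TGFB1 spheroid 2 was thus the lowest library of its group for Col15a1 and the highest for Col18a1, and the ratio of Col15a1 to Col18a1 was 4.99, 0.319 and 2.20 in TGFB1 spheroids, against 22.5, 19.2 and 35.8 in untreated spheroids.

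Col23a1, a collagen anchored in the cell membrane, was at 4.63, 14.2 and 8.51 in TGFB1 spheroids, against 0.165, 0 and 0.15 in untreated spheroids (3.08 ± 0.29, adjusted p = 3e-05; 5.48 with a pseudocount of 0.1). The monolayers were at most 0.355, and the effect was larger in spheroids by 2.85 ± 0.40 (adjusted p = 0.00122; 4.35 with a pseudocount of 0.1). Library 2 was also the highest of the TGFB1 spheroids for Col5a3 and Col18a1. Col16a1, a FACIT collagen, was at 29.5, 12.1 and 11.9 in TGFB1 spheroids, against 9.5, 8.43 and 6.9 in untreated spheroids (0.91 ± 0.28, adjusted p = 0.0269). That call was lost without untreated spheroid 2 (adjusted p = 0.0599) or 3 (adjusted p = 0.0734), and the change was 0.50 without TGFB1 spheroid 1. In monolayers Col16a1 was at 20.6, 15.6 and 15.7 with TGFB1, against 8.76, 9.03 and 9.03 without (0.87 ± 0.28, adjusted p = 0.0563, not called, no overlap). Col7a1, the anchoring fibril collagen below epithelia, was at 2.99, 13.3 and 9.63 in TGFB1 spheroids and 11.1, 13.2 and 5.93 in untreated spheroids, against 2.12 to 3.22 in TGFB1 monolayers and 1.91 to 2.69 in untreated monolayers. Spheroids were higher, with TGFB1 (1.24 ± 0.41, adjusted p = 0.025) and without (1.73 ± 0.41, adjusted p = 0.0041), and the first call was lost without TGFB1 monolayer 2 or 3 or TGFB1 spheroid 2 or 3 (adjusted p up to 0.10). Col20a1, a FACIT collagen, was higher in untreated spheroids than in untreated monolayers (1.02 ± 0.38, adjusted p = 0.04) and in TGFB1 spheroids than in TGFB1 monolayers (1.17 ± 0.38, adjusted p = 0.0237). The first call was lost without any 1 of 7 libraries (any untreated monolayer, TGFB1 monolayer 2 or 3, untreated spheroid 1 or 2; adjusted p up to 0.122) and the second without any 1 of 4 (TGFB1 monolayer 1 or 2, TGFB1 spheroid 2 or 3; up to 0.0896, and 0.76 without TGFB1 spheroid 2).

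Ratios of partner chains within a library do not depend on its scaling factor. The ratio of Col1a1 to Col1a2 was 0.0325 to 0.0686 in TGFB1 spheroids, 0.00312 to 0.00680 in untreated spheroids, 0.88 to 1.48 in TGFB1 monolayers and 0.0433 to 0.0550 in untreated monolayers. Only TGFB1 monolayers of these 4 groups therefore held about as much Col1a1 as Col1a2 RNA. The ratio of Col5a2 to Col5a1 was 2.36 to 4.14 in TGFB1 spheroids, against 11.2 to 17.9 in untreated spheroids, and 27.6 to 42.6 in TGFB1 monolayers, against 67.5 to 75.8 in untreated monolayers. It was lower with TGFB1 in both forms. The ratio of Col4a1 to Col4a2 stayed within 1.53 to 1.80 in TGFB1 spheroids, 2.05 to 2.41 in untreated spheroids, 1.77 to 1.80 in TGFB1 monolayers and 1.71 to 1.75 in untreated monolayers. The ratio of Col3a1 to Col5a2, neighbouring genes on chromosome 1 that lie tail to tail 24614 bases apart, was 0.763 to 1.64 in TGFB1 spheroids, 5.98 to 6.86 in untreated spheroids, 0.304 to 0.430 in TGFB1 monolayers and 0.611 to 0.804 in untreated monolayers.

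**Figure D4:**
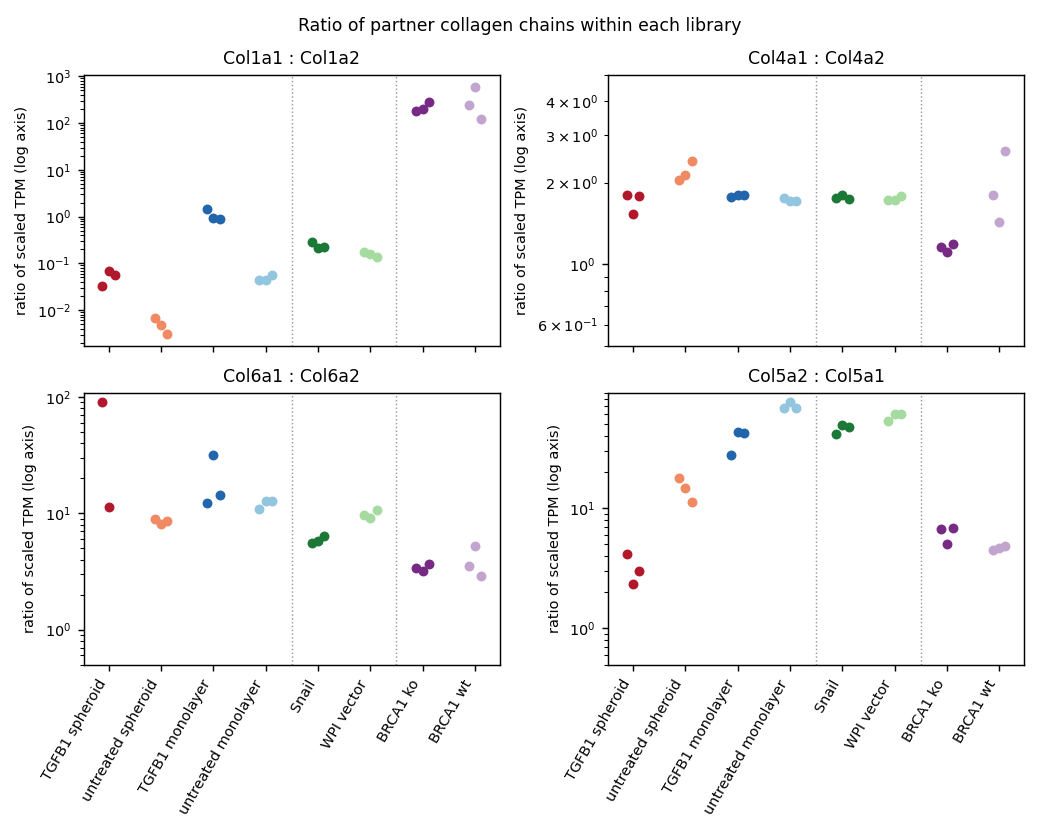
Ratios of scaled TPM of 4 pairs of collagen chains within each library (points, log axes), by group; dotted lines separate the 3 experiments, and TGFB1 spheroid 2 has no point for Col6a1 to Col6a2 because Col6a2 is at 0. Col1a1 to Col1a2 is near 1 in TGFB1 monolayers (0.88 to 1.48) and at most 0.0686 in the other 3 groups of the culture experiment, while Col4a1 to Col4a2 stays between 1.53 and 2.41 there.

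Of 30 genes of collagen processing and crosslinking, 24 were tested in the culture experiment. With TGFB1, 7 were higher and 5 lower in spheroids and 13 were higher and 2 lower in monolayers, with medians of 0.09 and 0.43. Of all genes tested, 18.8% were higher and 16.8% lower in spheroids, and 9.12% and 7.79% in monolayers. Lox, which encodes the lysyl oxidase that crosslinks collagen, averaged 698 ± 180 in TGFB1 spheroids and 45.9 ± 15.5 in untreated spheroids (3.92 ± 0.27, adjusted p = 3.96e-06), and 1270 ± 408 in TGFB1 monolayers and 159 ± 17.8 in untreated monolayers (2.95 ± 0.27, adjusted p = 0.000129). Bmp1, the procollagen C-proteinase, rose by 1.59 ± 0.16 in spheroids and 1.46 ± 0.16 in monolayers, while Pcolce, its enhancer, fell by 1.37 and 0.92. Plod1, a lysyl hydroxylase, fell by 0.87 in spheroids and rose by 0.80 in monolayers (difference -1.66 ± 0.28, adjusted p = 0.00334). Adamts3, a procollagen N-proteinase, was the second gene that was lower in TGFB1 monolayers (-0.81 ± 0.14). The chaperone gene Serpinh1 was at 563 ± 55.5 in TGFB1 spheroids, 416 ± 48.8 in untreated spheroids, 1615 ± 191 in TGFB1 monolayers and 1075 ± 41.7 in untreated monolayers, higher with TGFB1 in both forms (0.44 ± 0.11 and 0.58 ± 0.11).

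Without TGFB1, 11 processing genes were higher and 8 lower in spheroids than in monolayers, beside 27.6% and 27.7% of all genes. They were led by Plod1 (2.28 ± 0.20), P4ha2 (1.57 ± 0.14), Adamts3 (-2.12 ± 0.14) and Loxl1 (-2.00 ± 0.14). P4ha2 encodes a prolyl hydroxylase and Loxl1 a relative of lysyl oxidase. Adamts3 passed the filter only through monolayers, where it was high. With TGFB1, 7 were higher and 11 lower in spheroids, beside 25.3% and 26.5% of all genes. They were led by P4ha2 (1.499 ± 0.143), Bmp1 (1.22 ± 0.16), Loxl2 (-2.41 ± 0.36) and Loxl1 (-1.70 ± 0.14). Of 6 tested collagen receptor genes, 3 were higher and 1 lower with TGFB1 in spheroids and 1 was higher in monolayers. With TGFB1, 35.6% of all genes were called in spheroids and 16.9% in monolayers, beside this list and those of degradation and proteoglycan genes. Itga2, which encodes a subunit of a collagen-binding integrin, was at 11.1, 45.0 and 23.9 in TGFB1 spheroids, against 0.282, 0.153 and 0.0936 in untreated spheroids (4.36 ± 0.43, adjusted p = 4.56e-05). Itga11, another such subunit, which like Itga2 passed the filter through TGFB1 libraries only, rose by 2.64 ± 0.24 and Ddr1, a collagen-binding kinase receptor, by 0.63 ± 0.09, while Itga10 fell by 1.49 ± 0.45. The monolayer call was Itgb1, the shared beta subunit (1.06 ± 0.11). Of 4 tested genes of collagen degradation, Mmp2 and Mmp14 rose in both forms, Mmp2 by 4.35 ± 0.18 in spheroids and 1.99 ± 0.18 in monolayers. Of 3 tested small proteoglycan genes, Bgn (2.25 ± 0.58) and Dcn (1.23 ± 0.28) rose with TGFB1 in spheroids, and Dcn (-1.14 ± 0.28) and Ogn (-0.97 ± 0.21) fell in monolayers.

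In the Snail experiment, 4 of 21 tested members were called, all higher, beside 1.72% of all genes tested (0.572% higher, 1.14% lower). The median log2 fold change was 0.15 for members and 0.011 for all genes. Col6a1 was at 145, 106 and 84.6 in Snail libraries, against 59.0, 36.0 and 49.5 in WPI libraries (1.19 ± 0.22, adjusted p = 0.0477). Col6a2 was at 26.3, 18.2 and 13.4 in Snail libraries, against 6.12, 3.92 and 4.65 in WPI libraries (1.75 ± 0.24, adjusted p = 0.0192). Neither pair of groups overlaps. The ratio of Col6a1 to Col6a2 was 5.53 to 6.33 with Snail and 9.17 to 10.6 with WPI. Both genes were thus lower in TGFB1 libraries and higher in Snail libraries than in the controls of their own experiment. Type VI chains made up 2.67 to 3.97% of collagen RNA in Snail libraries and 1.06 to 1.62% in WPI libraries, and type IV chains 65.1 to 66.9% and 70.3 to 72.2%. Col27a1 was at 9.79, 7.46 and 7.63 in Snail libraries, against 4.56, 3.00 and 3.32 in WPI libraries (1.01 ± 0.16, adjusted p = 0.0306), and Col18a1 at 2.65, 2.04 and 1.97 in Snail libraries, against 0.714, 0.945 and 0.741 in WPI libraries (0.83 ± 0.15, adjusted p = 0.0454; 1.36, adjusted p = 0.0533, with a pseudocount of 0.1). Col18a1 passed the filter only through Snail libraries, so its place among the calls rests on that selection. These calls were near the threshold. Col6a1 and Col18a1 were lost without any 1 of the 6 libraries (adjusted p up to 0.152 and 0.151), Col27a1 without any but WPI 1 (up to 0.113), and Col6a2 without WPI 2, WPI 3 or Snail 2 (up to 0.0829).

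Col6a2 (chromosome 10, 76595762 to 76623630) and Col6a1 (76708792 to 76726168) lie on the minus strand with 85161 bases between them, and Col18a1 follows at 77052178 to 77166548. Bases before the starts of both type VI genes are shown because both were lower in TGFB1 libraries and higher in Snail libraries. In the BRCA1 experiment Col6a2 was called and Col6a1 was not. Shown are 250 bases for Col6a2 (chr10:76623631-76623880) and 126 for Col6a1 (chr10:76726169-76726294), minus strand, GRCm38.p6, with capitals as above. For Col6a1 they are the part of its RefSeq window outside the gene's GENCODE span, so bases nearer the RefSeq start are left out.
Col6a2: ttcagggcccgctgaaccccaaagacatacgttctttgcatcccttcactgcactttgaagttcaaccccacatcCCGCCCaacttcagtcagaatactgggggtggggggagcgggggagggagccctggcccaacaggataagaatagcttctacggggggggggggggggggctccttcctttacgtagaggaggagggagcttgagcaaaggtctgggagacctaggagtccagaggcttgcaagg
Col6a1: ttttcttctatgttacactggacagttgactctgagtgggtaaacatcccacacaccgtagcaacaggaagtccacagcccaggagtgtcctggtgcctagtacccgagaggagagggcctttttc
Col6a2 has 1 set of GC box letters, 175 bases before this start, and Col6a1 none of the 5 sets. Another RefSeq window of Col6a2 (chr10:76623355-76623654) has GC box letters 67, 15 and 11 bases before its own start. The E-box letters CAGGTG, which Snail is known to bind, do not occur in any of these windows.

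The other fibrillar and FACIT genes of the Snail experiment were not called. Col1a1 was at 37.6, 26.9 and 26.1 in Snail libraries and 19.7, 18.7 and 17.8 in WPI libraries (0.65 ± 0.13, adjusted p = 0.068), and Col16a1 at 30.2, 25.2 and 26.5 in Snail libraries and 20.01, 21.04 and 18.6 in WPI libraries (0.44 ± 0.09, adjusted p = 0.0593). Neither pair overlaps. Type IV genes lay close together: Col4a1 was at 1710, 1650 and 1463 in Snail libraries and 1743, 1580 and 1819 in WPI libraries, and the 5 tested type IV genes had log2 fold changes of -0.11 to 0.10. Col4a4, too low to be tested, was at 0.364, 0.502 and 0.491 in Snail libraries and 0.813, 0.955 and 0.918 in WPI libraries. The authors' deposited table, made by another method, gives a q-value under 0.05 for 9 of 26 collagen genes, among them Col6a2 (log2 coefficient 1.94, q = 7.04e-07) and Col4a4 (-0.99, q = 0.000265). Of the tested genes that limma did not call, it gives Col1a1 q = 0.00526, Col16a1 q = 0.0143, Col12a1 q = 0.00324 and Col5a1 q = 0.000424. Their coefficients are above 0. The rest are Col6a1, Col18a1 and Col27a1, which limma called. The share of all genes under that q-value was not worked out, so these 9 have no background beside them. Among 23 tested processing genes Adamts2, a procollagen N-proteinase, was higher with Snail (0.84 ± 0.15, adjusted p = 0.0394), and limma called 0 of the 9 tested receptor, degradation and proteoglycan genes (0 also at an unadjusted p under 0.05). These counts stand beside 1.72% of all genes. Col5a3 stayed at or below 0.122 and Col15a1 at or below 0.48 in all 6 libraries.

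In the BRCA1 experiment, 3 of 23 tested members were called, all higher in libraries labelled BRCA1 ko, beside 14.3% of all genes tested (9.04% higher, 5.27% lower), with medians of 0.40 for members and 0.17 for all genes. With libraries scaled to the same sum the median of all genes was 0.63 and Col20a1 alone was called, while 651 genes were higher and 167 lower in place of 1155 and 673; with median ratios these were 983 and 870, the median was -0.0062 and 2 members were called. Col20a1 was at 5.96, 5.24 and 6.82 in BRCA1 ko libraries, against 0.496, 1.16 and 1.41 in BRCA1 wt libraries (1.82 ± 0.26, adjusted p = 0.00745). Col6a2 was at 37.4, 30.9 and 42.4 in BRCA1 ko libraries, against 15.2, 21.3 and 10.6 in BRCA1 wt libraries (1.22 ± 0.30, adjusted p = 0.0407), and Col9a3, a FACIT chain known from cartilage, at 4.41, 3.67 and 4.02 in BRCA1 ko libraries, against 1.23, 2.27 and 1.85 in BRCA1 wt libraries (0.87 ± 0.23, adjusted p = 0.049). None of these groups overlaps. Col20a1 lies on chromosome 2, 364345 bases from Col9a3 on the same strand. The call of Col20a1 was lost without BRCA1 ko 1 (adjusted p = 0.0503). Those of Col6a2 and Col9a3 were lost without any 1 library but BRCA1 wt 2 (adjusted p up to 0.166 and 0.198). The authors' deposited table gives 2 of 31 collagen genes a q-value under 0.05, Col20a1 (log2 coefficient 2.34, q = 1.75e-05) and Col6a2 (0.95, q = 0.0302). The share of all genes under that q-value was not worked out here either.

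Library BRCA1 wt 2 stood apart from its group, with a mean correlation over genes of 0.891 with the other two and of up to 0.935 with a BRCA1 ko library. Collagen RNA was 0.197 to 0.309% of the library sum in BRCA1 ko, against 0.102, 0.279 and 0.0482% in BRCA1 wt. Col4a2 was at 485, 411 and 645 in BRCA1 ko libraries and 189, 473 and 87.1 in BRCA1 wt libraries, and Col6a1 at 127, 97.7 and 155 in BRCA1 ko libraries and 53.4, 112 and 30.6 in BRCA1 wt libraries. In both genes wt 2 lay among the ko libraries, and neither was called (adjusted p = 0.126 for Col4a2 and 0.114 for Col6a1). Without BRCA1 wt 2, 10 members were called, all higher, with Col4a2 at 1.97 ± 0.35, Col4a5 at 1.63 ± 0.27, Col6a1 at 1.60 ± 0.29 and Col4a1 at 1.06 ± 0.28. The others added were Col11a2, Col18a1 and Col26a1. That setting called 65.9% of all genes, so the share of members called (43.5%) lay below the background. A setting with BRCA1 wt 2 as the only BRCA1 wt library was added after seeing the data. The log2 fold change was then -2.57 for Col4a4 and -1.24 for Col4a6, and 0.75 for Col6a2 and 0.62 for Col9a3. The spread in that setting came from the BRCA1 ko libraries alone, and the lone library was assumed to vary like them. Col4a4 was at 2.00, 0.868 and 1.88 in BRCA1 ko libraries and 2.80, 14.0 and 2.07 in BRCA1 wt libraries. It was not called in the fit on all libraries (adjusted p = 0.175). Mitochondrial genes took 10.5 to 12.7% of the library sum in BRCA1 ko and 6.83, 8.75 and 15.3% in BRCA1 wt, and the library sum was 796668 to 1810667 in BRCA1 wt; their part was not tested.

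In these cells type I collagen RNA was mostly Col1a1. Col1a1 was at 246, 143 and 365 in BRCA1 ko libraries and 153, 281 and 130 in BRCA1 wt libraries, while Col1a2 was at 1.34, 0.721 and 1.32 in BRCA1 ko libraries and 0.631, 0.473 and 1.06 in BRCA1 wt libraries. The groups overlap for both genes. Their ratio was 184 to 276 in BRCA1 ko and 123 to 595 in BRCA1 wt, whereas it was at most 1.48 in every library of m1102. The ratio of Col4a1 to Col4a2 was 1.11 to 1.19 in BRCA1 ko and 1.43 to 2.61 in BRCA1 wt, with no overlap. Among 25 tested processing genes, Colgalt2, a collagen galactosyltransferase, averaged 12.8 ± 3.14 in BRCA1 ko and 0.330 ± 0.235 in BRCA1 wt (3.37 ± 0.26, adjusted p = 0.00146). Plod1 was higher (1.72 ± 0.38) and Adamts2 lower (-0.95 ± 0.25). Of the small proteoglycans, Fmod (2.14 ± 0.23) and Lum (1.56 ± 0.18) were higher in BRCA1 ko, among 5 tested. Colgalt2 and Lum passed the filter only through BRCA1 ko libraries, where they were high. Of the other lists, limma called 0 of 5 tested receptor and 0 of 2 tested degradation genes (3 and 2 at an unadjusted p under 0.05). All these lists stand beside 14.3% of all genes called. The summed fibroblast and stroma markers, which include Lum and Dcn, were 816 to 962 in BRCA1 ko and 378 to 653 in BRCA1 wt, with 7 and 4 of 8 reaching 1. Smooth muscle and pericyte markers summed to 585 to 1115 in BRCA1 ko and 2342 to 3544 in BRCA1 wt, and granulosa and theca markers to 561 to 612 and 188 to 285, with Fshr, Cyp17a1, Cyp11a1 and Cyp19a1 at or below 1 in both. Their part in the collagen differences was not tested.

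**Figure D5:**
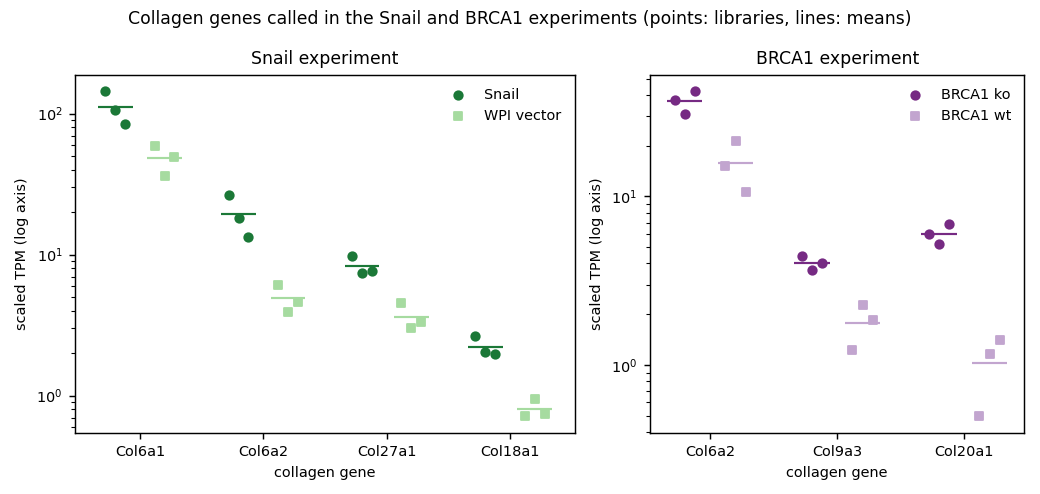
Scaled TPM per library (points, log axis) of the 4 collagen genes called in the Snail experiment and the 3 called in the BRCA1 experiment, with lines at the group means. All Snail libraries lie above all WPI libraries, and all BRCA1 ko libraries above all BRCA1 wt libraries, for these genes.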

How the data were processed

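RNA of 24 libraries was sequenced from poly(A)-selected directional libraries, per the labels' protocols. The submitters' processing notes name kallisto 0.44.0, sleuth 0.30.0 and GRCm38, with no role or order. The authors deposited a signal per gene and library that is called TPM in the table titles; its columns do not share one sum, so it is treated as TPM times a factor per library (scaled TPM). Read depth is unknown. The deposited coefficients of the Snail and BRCA1 tables are natural log values, divided here by ln 2, and their p-values and q-values are the authors' own. Genes with at least 1 scaled TPM in at least 3 libraries of a table entered linear models of log2(scaled TPM + 1) in limma 3.58.1 (R 4.3.3; moderated by eBayes with a trend, two-sided, Benjamini-Hochberg over all genes tested: 13509, 12240 and 12775 in the culture, Snail and BRCA1 tables). The 12 culture libraries shared one fit with a mean per group, and the difference between both TGFB1 effects was an interaction contrast. The fit was tested on simulated data. Tables and figures were made with Python 3.11.15, pandas 2.3.3, numpy 2.4.6 and matplotlib 3.10.9. Positions are from GENCODE M21 (44 of 44 members matched by ID) and sequences from RefSeq (GRCm38.p6). Col4a6 is on 2 identical rows and was counted once.

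The members, the gene lists and the tests were chosen with earlier results of these data known. Values in every library were to be given for the called members with the largest changes (up to 8 a comparison), the 5 with the highest mean, and Col1a1, Col5a3, Col6a1, Col6a2 and Col15a1; other pathway genes were to be given by the 2 largest called changes in each direction. Other members with values by library, and Serpinh1, Ddr1 and Mmp14, were added after their values were seen. Alternatives were the pseudocount (0.1), no filter, the same library sum, median-ratio scaling, library quality weights, fits on the groups compared alone, the replicate number as a block, and leaving out each library.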

Additional observations from a re-analysis of the deposited data

Results flagged for a closer look

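For 13 of 26 tested collagen genes the TGFB1 effect differed between spheroids and monolayers, tested as an interaction in limma, beside 15.8% of all genes. The differences (spheroids minus monolayers, log2) were below 0 for all 6 type IV genes, at -1.31 for Col4a1, -0.89 for Col4a2, -2.18 for Col4a3, -1.81 for Col4a4, -1.10 for Col4a5 and -1.33 for Col4a6. They were also below 0 for Col1a1 at -2.04, Col3a1 at -1.79 and Col15a1 at -2.40. The differences were above 0 for Col5a3 at 7.06, Col23a1 at 2.85, Col27a1 at 1.81 and Col5a1 at 1.18. The limma calls of Col5a1 and Col15a1 were each lost without any 1 of 9 of the 12 libraries (adjusted p up to 0.0895 and 0.0762). With a pseudocount of 0.1 the differences were -1.25 for Col1a1, -3.16 for Col4a4 and 4.35 for Col23a1, and the last 2 passed the filter through 1 group alone, as did Col5a3. All monolayer libraries are labelled as earlier data. Spheroid cells received TGFB1 for 4 days before spheroid culture, while the labels give no time for the monolayers. Culture form, library origin and TGFB1 schedule therefore cannot be told apart in these differences.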

How the results depend on the processing

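No called collagen gene changed direction under any alternative. Of the called members, 14 of 16 (TGFB1 in spheroids), 7 of 7 (TGFB1 in monolayers), 13 of 15 (untreated spheroids against untreated monolayers), 17 of 19 (TGFB1 spheroids against TGFB1 monolayers) and 11 of 13 (difference of effects) were called in every alternative that tested them, against 0 of 4 with Snail and 0 of 3 in BRCA1 ko. Of those kept, Col24a1 (untreated spheroids against untreated monolayers) and Col6a3 (TGFB1 spheroids against TGFB1 monolayers) were not tested in the fit on the 2 groups alone. In TGFB1 monolayers, quality weights called 15 members beside 47.6% of all genes, and a fit on the 2 groups alone 11 of 21 beside 30.7%. With Snail, a pseudocount of 0.1 called 2 beside 1.67% of all genes, no filter 0 (11 at an unadjusted p under 0.05) beside 0.234%, and the replicate block 1 beside 0.131%. Leaving out a library with Snail called 0 to 2 beside 0.188 to 0.613%. In BRCA1 ko, no filter, the same library sum and the replicate block each called 1, beside 4.46%, 6.4% and 3.39% of all genes. Quality weights, whose estimate did not converge there, called 18 (16 higher, 2 lower) beside 90.3%. Leaving out a library in that experiment called 0 to 10 (10, without BRCA1 wt 2, beside 65.9%). Without any other library the share of all genes was 2.22 to 5.36%. Leaving out a library gave 15 to 16, 7 to 9, 13 to 17, 17 to 21 and 11 to 13 calls in the 5 culture comparisons. The shares of all genes were then 24.4 to 36.6%, 9.13 to 20.9%, 47.4 to 58%, 44.9 to 55.7% and 10.4 to 20.3%. The labels give no sign that replicate numbers pair libraries, and same-numbered deviations correlated at -0.32 to 0.33. The block gave 16, 8, 15, 19 and 12 calls in the culture comparisons, beside 33.1%, 14.8%, 53.5%, 50.1% and 13.5% of all genes. Depth is unknown, so no counting error could be given, and levels near 0 are shrunk by the pseudocount. With 3 libraries a group, calls near the threshold rest on single libraries. The cause of these shifts was not tested.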

Other observations

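Tgfb1 RNA itself averaged 797 ± 185 scaled TPM in TGFB1 spheroids and 99.8 ± 6.96 in untreated spheroids (limma, 2.96 ± 0.13), while it was at 39.4 ± 0.766 in TGFB1 monolayers and 36.6 ± 2.04 in untreated monolayers (0.10, adjusted p = 0.665; SD, n = 3 libraries). Col12a1, a FACIT chain, was at 2.04, 1.92 and 1.61 in Snail libraries and 1.05, 0.798 and 1.06 in WPI libraries, groups that do not overlap, and it was not called by limma (adjusted p = 0.142). The authors' deposited table gives it a log2 coefficient of 0.93 and q = 0.00324. The ratio of Col4a3 to Col4a4 was 5.36 to 5.79 in Snail libraries and 2.58 to 2.69 in WPI libraries.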
